A study of Mus musculus with 2 samples.

Results

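The genes described here encode the inhibitors of cyclin-dependent kinases (CDKs) and the Btg growth suppressors, measured in cultured fetal lung epithelium of the mouse. A list of 10 genes was used: Cdkn1a, Cdkn1b and Cdkn1c of the Cip/Kip family, Cdkn2a, Cdkn2b, Cdkn2c and Cdkn2d of the Ink4 family, and Btg1, Btg2 and Btg3. Every probe set of the array whose annotation named 1 of these genes and no other gene was taken, which gave 14 probe sets for 9 genes, out of 34945 single-gene probe sets for 18193 genes. Btg3 was left without a value of its own, because its probe set was also annotated to the predicted gene Gm7334. The epithelium came from ICR mice at embryonic day 11 and was grown in Matrigel, a basement membrane gel, for 4 days with FGF10, which drives the budding of the lung, and with CHIR99021, an inhibitor of the kinase GSK3 that switches on Wnt signalling through beta-catenin. It was then cut into fragments and grown for another 2 days with FGF10, either with CHIR99021 or without it, so both groups had been exposed to the inhibitor. Each group was measured on 1 Affymetrix array, and the labels do not say how many embryos or cultures a sample held. Every value below is therefore a single measurement, with no error between cultures and no p-value.

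CDK inhibitors brake the cell cycle. Ink4 proteins bind CDK4 and CDK6 and keep D-type cyclins from activating them, so that the retinoblastoma protein stays active and entry into S phase is held back, whereas Cip/Kip proteins bind complexes of cyclins with CDKs more broadly, CDK2 among them. Btg proteins act at another level: they recruit the CCR4-NOT deadenylase to messenger RNAs and so shorten their lifetime. In the developing lung, these brakes are set against the growth signals that keep the tip of the branching epithelium dividing.

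On the authors' scale, 3 of the 9 genes were at least 2-fold lower with CHIR99021, 1 was at least 2-fold higher and 5 lay within 2-fold. The lower genes were Btg2, Cdkn2b and Cdkn1c, 1 from each of the 3 families, and the higher one was Cdkn1a. Over all 12917 genes above background on at least 1 array, 18.4% were at least 2-fold lower and 1.90% at least 2-fold higher. The corresponding shares for the 9 genes were 33.3% and 11.1%, which rest on 3 genes and 1 gene. Among genes that reached a signal of 100 on the brighter array, as 8 of the 9 did, the shares were 18.0% lower and 1.94% higher. The median log2 ratio of with over without was -0.78 for the 9 genes, against -0.42 over all measured genes. Of the 9 genes, 7 had a negative ratio, as did 77.4% of all measured genes. The direction of most of these genes was thus that of the array as a whole, and the sections that follow describe how far each gene lay from it.

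**Figure D1:**
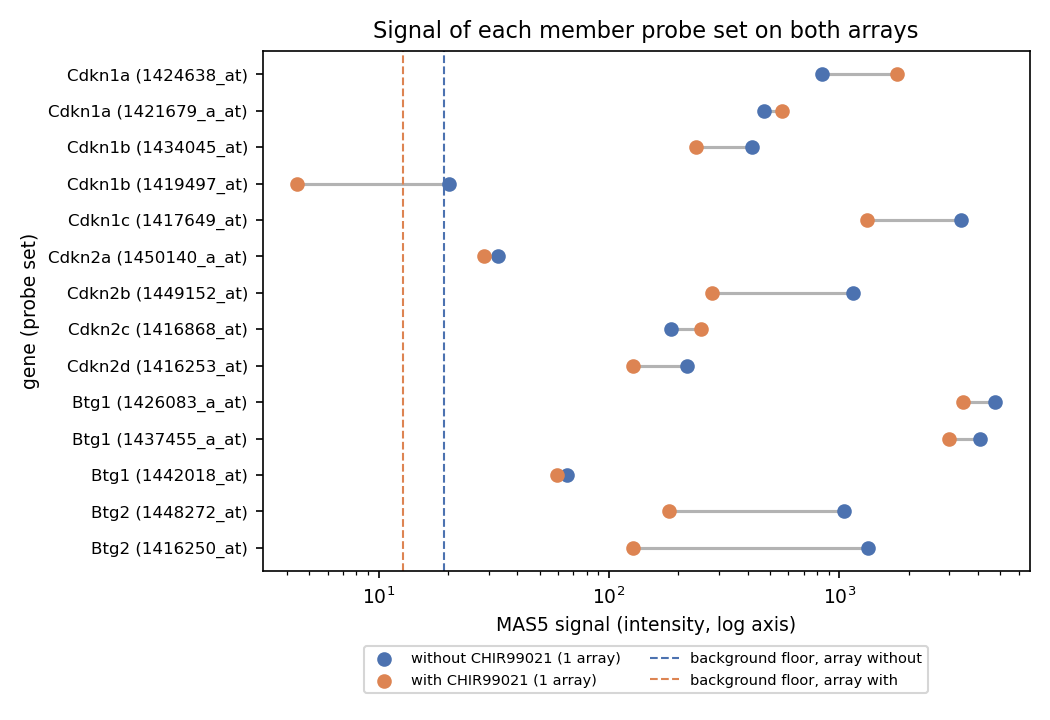
MAS5 signal (intensity, log axis) of the 14 single-gene probe sets of CDK inhibitor and Btg genes, with 1 point for the array without CHIR99021 (blue) and 1 for the array with it (orange). Dashed lines mark the background floor of each array, at signals of 19.2 and 12.7. The widest gaps above the floors are those of the Btg2 pair and of Cdkn2b, and only the dimmer Cdkn1b probe set drops below a floor.

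The arrays differed in ways that touch every value. Signals on the array with CHIR99021 were lower for most genes, and the control probe sets for the 3' end of beta-actin were 3.18 times as bright as those for its 5' end, against 1.29 times without the inhibitor, with the same order for Gapdh (1.62 and 0.737). The part of this difference in the ratios below was not tested. Axin2, a feedback inhibitor that beta-catenin induces, had a signal of 58.2 without and 267 with CHIR99021, in the direction of the labels. Of 10 markers of lung epithelium, all 10 were above the floor on at least 1 array, although Nkx2-1, the lung identity factor, only on the array without CHIR99021. Of these 10, Sox9, a factor of the distal tip, was at least 2-fold higher (70.1 and 771), and Nkx2-1 and the keratins Krt8 (7715 and 3151) and Krt18 (6738 and 2834) were at least 2-fold lower. After median centring 1 was higher and 1 lower, with Krt8 and Krt18 at log2 ratios of -0.82 and -0.77. After loess normalization 1 was higher and 3 were lower. Of markers of other cells, 4 of 10 for mesenchyme (summed signal 207 without and 159 with CHIR99021; Pdgfra, Pdgfrb, Tbx4, Twist2, Lum and Fgf10 below the floor on both arrays), 1 of 6 for endothelium (32.0 and 23.5; Pecam1, Cdh5, Tek, Tie1 and Emcn below) and 4 of 6 for leukocytes (287 and 131; Ptprc and Fcer1g below) were above the floor on at least 1 array. For mesothelium it was 3 of 5 (4527 and 301; Wt1 and Upk3b below) and for red cells 0 of 3 (Hba-a1, Hbb-y and Alas2 below). Of the mesothelial markers, Krt19, a keratin that epithelium makes as well, had 4030 and 278, and Msln had 471 and a value below the floor, at least 37.0-fold lower. The part of these markers in the ratios was not tested. In RNA from a whole culture, fewer cells that make a transcript and less of it per cell cannot be told apart.

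Among the Cip/Kip genes, Cdkn1a and Cdkn1c differed in opposite directions. Cdkn1a encodes p21, which halts the cycle after DNA damage through p53 and also accompanies differentiation. Its brighter probe set had a signal of 838 without and 1771 with CHIR99021, 2.11-fold higher, a log2 ratio of 1.08. Only 207 of the 12917 measured genes had a ratio as high or higher, or 1.60%. The other Cdkn1a probe set had 472 without and 562 with CHIR99021, a log2 ratio of 0.25, so both were higher with the inhibitor but only the brighter of them passed 2-fold. The probe sets differed by 0.83. Over 5335 genes read by several probe sets, log2 ratios of single probe sets scattered around their gene with an SD of 0.56. With the median of the 2 probe sets, Cdkn1a was at a log2 ratio of 0.67 and no longer past 2-fold, leaving 0 genes of the group higher. Even the smaller ratio of 0.25 was in the upper part of the array, where 9.91% of measured single-gene probe sets had a ratio as high.

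Cdkn1c encodes p57, an imprinted inhibitor that is expressed from the maternal allele and accompanies exit from the cycle in many embryonic tissues. Its only probe set had 3363 without and 1324 with CHIR99021, 2.54-fold lower, a log2 ratio of -1.35. It was far above background on both arrays, at 175 and 104 times the floor, so neither value was near the floor. In the whole array, 9.79% of genes had a ratio as low. Relative to the median gene, Cdkn1c was 1.89-fold lower. After median centring its log2 ratio was -0.87, under the 2-fold threshold, and after loess and quantile normalization it was -1.13 and -1.07, just past it. Of the 3 lower genes, it is the one whose call depends on the scaling.

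Cdkn1b encodes p27, which restrains CDK2 in resting cells and is removed by the SCF ubiquitin ligase with Skp2 before S phase. Its brighter probe set had 417 without and 239 with CHIR99021, a log2 ratio of -0.81. This was within 2-fold, and 26.8% of all measured genes had a ratio as low. The dimmer Cdkn1b probe set barely cleared the floor without CHIR99021, at 20.2, and was below it with the inhibitor, at 4.44, which gives a bound of at least 1.59-fold lower. After median centring, loess and quantile normalization, the brighter probe set was at log2 ratios between -0.35 and -0.28. The dimmer one was at -0.19, -0.079 and 0.014 under these, so its sign depends on the scaling.

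Among the Ink4 genes, Cdkn2b was past 2-fold and its neighbour Cdkn2a was not. Cdkn2b encodes p15, an inhibitor of CDK4 and CDK6 that TGF-beta induces in epithelial cells and that Myc represses. Its probe set had a signal of 1144 without and 281 with CHIR99021, 4.08-fold lower, a log2 ratio of -2.03. Both values were well above background, at 59.7 and 22.1 times the floor. Only 418 of 12917 genes, 3.24%, had a ratio as low. Relative to the median gene it was 3.04-fold lower, and it remained past 2-fold under each of the other 4 scalings, with log2 ratios from -1.88 to -1.55.

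Cdkn2a encodes p16 and, from another first exon and another reading frame, the p53 activator Arf. Its probe set was dim, with 32.9 without and 28.7 with CHIR99021, or 1.72 and 2.26 times the floor, and the files do not say which of its transcripts it reads. The log2 ratio of -0.20 was nearer to 0 than that of the median gene, and its sign was positive after median centring (0.28), loess (0.40) and quantile normalization (0.49), so no direction can be given for it. In the RefSeq gene order of mouse chromosome 4, Cdkn2a and Cdkn2b lie side by side. The log2 ratio of Cdkn2b was at -2.03 and that of Cdkn2a at -0.20, and Mtap, a gene of methionine salvage on the other side of Cdkn2a, was 2.71-fold lower (741 without and 274 with CHIR99021, and lower still by its other 3 probe sets). Of 3 measured genes listed around the pair, 1 was at least 2-fold lower, Mtap, and 1 higher, Elavl2, a neuronal RNA-binding protein, at 28.6 and 66.0. After median centring 1 was higher and 0 were lower, and after loess normalization 1 was higher and 1 lower.

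Cdkn2c and Cdkn2d, which encode p18 and p19 of the Ink4 family, lay within 2-fold in opposite directions. Cdkn2c had 187 without and 252 with CHIR99021, a log2 ratio of 0.43. It was the only Ink4 gene with a higher signal on the array with CHIR99021 on the authors' scale, where 7.59% of genes had a ratio as high, and the ratio reached 0.99 after quantile normalization, just short of 2-fold. Cdkn2d had 219 without and 127 with CHIR99021, a log2 ratio of -0.78. That ratio is common on this array, where 27.8% of genes were as low, and it was -0.17 after quantile normalization. The 4 Ink4 genes therefore spanned log2 ratios from -2.03 to 0.43 and did not share a direction.

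Btg2 had the lowest ratio of all 9 genes. It encodes an antiproliferative protein, also known as Tis21 or Pc3, that is induced quickly by growth factors and by p53 and that marks progenitors about to differentiate in the embryonic brain. The first of its 2 probe sets had 1046 without and 182 with CHIR99021, 5.76-fold lower, a log2 ratio of -2.53. The second had 1335 without and 128 with CHIR99021, 10.5-fold lower, a log2 ratio of -3.39. Both were above the floor on both arrays, the first at 54.6 times the floor without and 14.3 times with CHIR99021. By the first probe set, 216 of 12917 genes (1.67%) had a ratio as low, and by the second, 0.672% of measured single-gene probe sets did. The probe sets differed by 0.86 from each other, but each was past 2-fold under each of the 5 scalings, with log2 ratios from -3.39 to -2.02.

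Btg1, the close relative of Btg2, lay near the median gene. Its brightest probe set had 4728 without and 3451 with CHIR99021, a log2 ratio of -0.45, and the second had 4084 and 2987, also -0.45. The third, much dimmer, had 65.4 without and 59.6 with CHIR99021, a log2 ratio of -0.13. The 3 probe sets thus lay between -0.45 and -0.13, and relative to the median gene Btg1 was 1.02-fold lower. After median centring the brightest was at 0.02, so the sign of its ratio depends on the scaling. Between the ratios of Btg2 and Btg1 there was a gap of more than 2 log2 units, while the probe sets of Btg1 differed among themselves by 0.32 and those of Btg2 by 0.86. The probe set shared by Btg3 and Gm7334 had 1074 without and 1233 with CHIR99021, a log2 ratio of 0.20. That value cannot be assigned to either gene and was not counted.

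**Figure D2:**
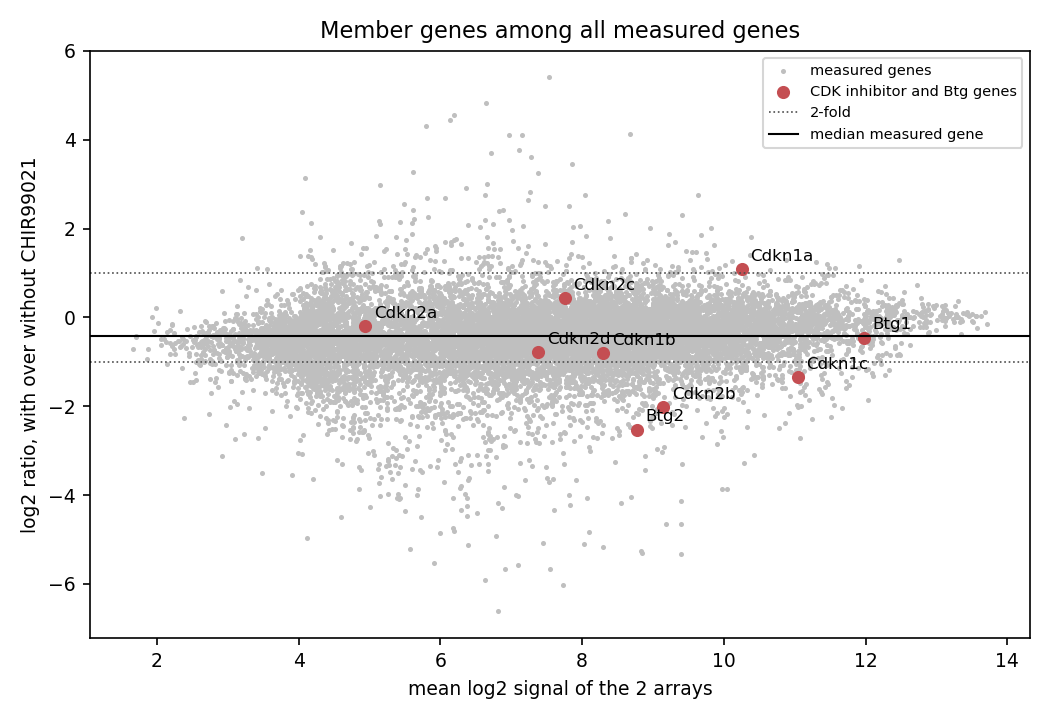
Log2 ratio of with over without CHIR99021 against the mean log2 signal of the 2 arrays, for the 12917 measured genes (grey) and the 9 CDK inhibitor and Btg genes (red), each by its brightest probe set. The solid line is the median measured gene, at -0.42, and the dotted lines mark 2-fold. Btg2 and Cdkn2b lie in the lower margin of genes of their signal, Cdkn1a at the upper margin and Btg1 beside the median.

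The scale of the arrays changed the values of all 9 genes but not their order at the extremes. Under each of 5 scalings (the authors' scale, median centring, quantile and loess normalization, and scaling by 18 spiked bacterial hybridization controls), Cdkn1a was at least 2-fold higher, and Btg2 and Cdkn2b were at least 2-fold lower. These calls are by the brightest probe set of each gene. By it, the log2 ratio of Cdkn1a ran from 1.08 to 1.56 and that of Btg2 from -2.53 to -2.02. The dimmer Cdkn1a probe set was within 2-fold under each scaling, at log2 ratios from 0.25 to 0.73. Cdkn1c was past 2-fold under 4 of the 5 scalings. Cdkn1b, Cdkn2c, Cdkn2d, Cdkn2a and Btg1 were within 2-fold under each of the 5, and of these Cdkn2a and Btg1 changed sign. After loess normalization 3 of 9 genes were at least 2-fold lower and 1 higher, where 7.29% and 6.03% of all genes were. After median centring it was 2 and 1, where 7.44% and 5.91% were. After quantile normalization 3 were lower and 1 higher (6.33% and 7.27% of all genes), and with the hybridization controls also 3 and 1 (14.0% and 2.63%).

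**Figure D3:**
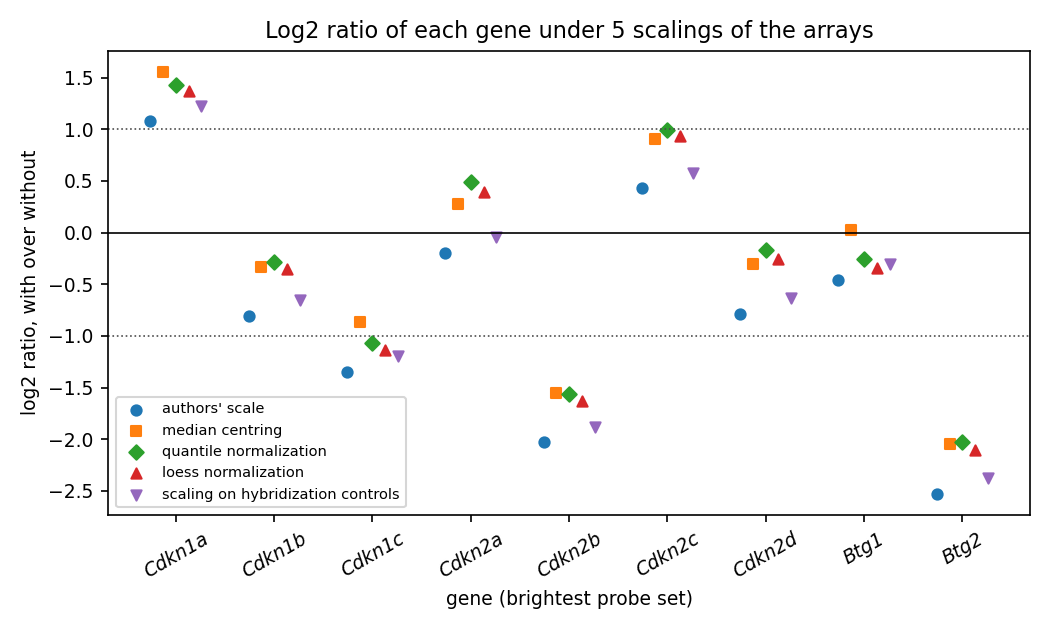
Log2 ratio of with over without CHIR99021 for the brightest probe set of each of the 9 genes under 5 scalings of the arrays, with dotted lines at 2-fold. Btg2 and Cdkn2b are below the lower line and Cdkn1a above the upper line under each scaling, while Cdkn1c crosses the lower line after median centring, at -0.87.

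By probe sets in place of genes, 4 of 14 were at least 2-fold lower and 1 was at least 2-fold higher, against 24.2% and 1.51% of all measured single-gene probe sets. The share of lower probe sets among the 14, 28.6%, was close to that of the array. The 4 lower ones were both of Btg2 and those of Cdkn1c and Cdkn2b. Of the 14, 13 were above the floor on both arrays, the exception being the dimmer one of Cdkn1b.

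Promoter sequences were read for the genes that differed most, to show the letters just upstream of their transcription starts. The RefSeq promoter table for GRCm38.p6 held 13 start sites for 9 of the 10 genes. It had none for Cdkn1c. Windows of the 250 bases before each start are printed for Btg2 and Cdkn2b, the pair with the lowest ratios, with the cyclic AMP response element TGACGTCA in capitals, and for the upstream start of Cdkn1a, the higher gene, with a p53 response element in capitals. They are written 5′ to 3′ on the strand of the gene. Btg2 is at chr1:134079156-134079405 on the minus strand, Cdkn2b at chr4:89311033-89311282 on the minus strand and Cdkn1a at chr17:29090729-29090978 on the plus strand.
Btg2: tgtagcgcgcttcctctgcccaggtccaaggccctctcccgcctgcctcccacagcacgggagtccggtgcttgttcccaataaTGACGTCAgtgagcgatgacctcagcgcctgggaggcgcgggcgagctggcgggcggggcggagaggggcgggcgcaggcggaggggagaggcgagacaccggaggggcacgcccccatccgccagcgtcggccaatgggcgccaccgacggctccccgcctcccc
Cdkn2b: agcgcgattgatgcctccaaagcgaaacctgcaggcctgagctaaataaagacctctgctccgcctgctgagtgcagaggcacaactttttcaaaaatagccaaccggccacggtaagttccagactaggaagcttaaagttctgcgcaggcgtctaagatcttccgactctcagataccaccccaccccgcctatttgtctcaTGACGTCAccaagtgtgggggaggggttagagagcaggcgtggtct
Cdkn1a: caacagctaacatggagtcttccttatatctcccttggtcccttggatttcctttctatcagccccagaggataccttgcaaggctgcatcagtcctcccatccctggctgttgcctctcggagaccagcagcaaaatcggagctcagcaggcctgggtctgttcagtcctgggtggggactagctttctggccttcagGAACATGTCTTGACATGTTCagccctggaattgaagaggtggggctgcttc

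TGACGTCA, the full site that proteins of the CREB and ATF family bind, was found in the windows of Btg2 and Cdkn2b and in none of the other 11. In Btg2 it began 166 bases before the start and in Cdkn2b 46 bases before it. The motif reads the same on both strands and was present in 1.55% of the 32851 windows of all genes. Its shorter core ACGTCA, searched on both strands and contained in the full site, was also found in the window of Btg1, which lay near the median gene, and in 6.47% of all windows. The motif was chosen after the values and the sequences were seen. Over the array, the 300 measured genes with TGACGTCA had a median log2 ratio of -0.38 and 16.3% of them were at least 2-fold lower, against -0.42 and 18.3% for the 10162 genes without it. Any part of this site in the ratios of Btg2 and Cdkn2b was not tested.

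The p53 element in the upstream window of Cdkn1a, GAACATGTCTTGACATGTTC, lay from 51 to 32 bases before that start. It was searched on both strands as a pair of adjoining half-sites with at most 1 base off. That base could only be a purine or pyrimidine position outside the core of a half-site. By this rule 15 of 32851 windows held it, or 0.0457%. No other window of these genes did. Like the other rules, this search was chosen with earlier results of these data known. Over the array, 3 measured genes held the element, of which 1, Cdkn1a itself, was at least 2-fold higher and 0 were lower. These are too few for a comparison. Of other motifs, GGGCGG, the GC box of Sp1, was found in 8 of the 13 windows and in 32.7% of all windows, and CCAAT in 6 of 13 and in 33.8%. The E-box CACGTG, the AP-1 site TGANTCA and the forms CTTTGAT and CTTTGTT of the site of TCF and LEF factors, the partners of beta-catenin, were found in 0 of the 13 windows on either strand, and in 6.02%, 6.75%, 3.21% and 5.03% of all windows. TATAAA was found in the window of Btg1 and in 12.4% of all windows.

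The genes on which these inhibitors act lay mostly within 2-fold by their brightest probe sets. Of 13 measured CDKs and cyclins, 0 were at least 2-fold higher and 1 was lower, with a median log2 ratio of -0.0049. Cdk4 and Cdk6, the kinases that the Ink4 proteins bind, had 1914 and 231 without and 2373 and 410 with CHIR99021. Cdk2, a kinase bound by Cdkn1a, Cdkn1b and Cdkn1c, had 437 and 324. Ccnd2, a D-type cyclin, was the lower gene, at 3.03-fold (5911 without and 1952 with CHIR99021), and its other 6 probe sets above background were at log2 ratios from -2.48 to -1.96. Ccnd1 had a log2 ratio of -0.47 by its brightest probe set and of -0.95 and -1.09 by the other 2, the last of them past 2-fold. Ccnd3 was at -0.50. Of 13 pocket protein and E2F genes, 0 were higher and 2 lower, with a median of -0.11. Of these Rbl2, which encodes p130, was lower at a log2 ratio of -1.59 (394 and 131) while Rb1 had 412 and 256. After median centring, 2 CDK and cyclin genes were higher and 1 lower, and 2 pocket protein and E2F genes were higher and 1 lower. After loess normalization the counts were 2 and 1 for CDKs and cyclins, and 1 and 1 for pocket proteins and E2F.

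Genes that control the level of the inhibitors were counted in 2 lists. Of 16 genes for the turnover of Cip/Kip proteins, 1 was higher and 0 lower, with a median log2 ratio of -0.24. The higher one was Skp2, the F-box protein that marks the Cdkn1b protein for destruction, at 414 without and 924 with CHIR99021, 2.23-fold. Its other 5 probe sets above background disagreed, with log2 ratios from -2.70 to 1.10. Cks1b, its cofactor, had 4875 and 5669. Of 29 measured transcriptional regulators of the inhibitor genes, 0 were higher and 5 lower, with a median of -0.20. Myc, a repressor of Cdkn2b and Cdkn1a, was 6.32-fold lower (263 and 41.5). The others that were lower, Hes1, Ets1, Klf6 and Ets2, had log2 ratios of -1.65, -1.64, -1.23 and -1.07. Cdkn2b itself was 4.08-fold lower and Cdkn1a 2.11-fold higher by its brighter probe set. Any part of these regulators in the ratios of the inhibitor genes was not tested. Of 11 other CDK regulators, 1 was higher, Cdc25c, and 0 were lower. After median centring the turnover list had 2 higher and 0 lower, and the regulators 2 higher and 3 lower. After loess normalization the turnover list had 2 and 0, and the regulators 0 higher and 3 lower.

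Cdkn1a and Btg2, both known as p53 targets, differed from the median of the other p53 targets in opposite directions. Of 21 other p53 target genes measured, 0 were higher and 5 lower, with a median log2 ratio of -0.63. Cdkn1a was at 1.08 and Btg2 at -2.53. By the brightest probe set of each gene, the lowest ratio of the 21 was that of Plk2, a kinase, at -2.22 (2026 without and 434 with CHIR99021). Sesn1 was at 0.71. Plk3, Tnfrsf10b and Pmaip1 were below the floor on 1 array, so their ratios are bounds, and Plk3, below it without CHIR99021 and at 26.9 with it, cannot be ranked against Cdkn1a. Mdm2, the p53 antagonist, had 805 and 536 by its brightest probe set and 467 and 98.7 by another, a log2 ratio of -2.24. Btg2 is also an immediate-early gene, and in a list of 17 measured genes of that kind 0 were higher and 4 lower, with a median of -0.76. In this list Ier3 was 7.26-fold, Fos 6.95-fold, Atf3 2.19-fold and Junb 2.02-fold lower, while Jun was at a log2 ratio of 0.79. The 2 Btg2 probe sets were 5.76-fold and 10.5-fold lower. After median centring 1 of the p53 targets was higher and 2 were lower, and 1 of the immediate-early genes was higher and 2 were lower. After loess normalization 3 of the 21 p53 targets were higher and 2 lower, where 6.03% and 7.29% of all genes were. The immediate-early genes had 1 higher and 2 lower by it.

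The relatives and partners of Btg1 and Btg2 lay within 2-fold. Of 16 measured genes of the Tob family and the CCR4-NOT complex, 0 were higher and 0 lower, with a median log2 ratio of -0.13. Tob1, an antiproliferative relative of the Btg proteins, had 2395 without and 1340 with CHIR99021. Cnot7 and Cnot8, the deadenylase subunits that Btg proteins bind, had log2 ratios of -0.03 and -0.15 by their brightest probe sets, and -1.77 and -1.10 by 2 dimmer ones of Cnot7. Prmt1, a methyltransferase that binds Btg1 and Btg2, was at 0.25. Of 18 proliferation markers, 0 were past 2-fold in either direction, with a median of 0.24, above that of all genes at -0.42, and Mki67 had 1920 and 2228. After loess normalization 1 of these markers was higher and 0 were lower.

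**Figure D4:**
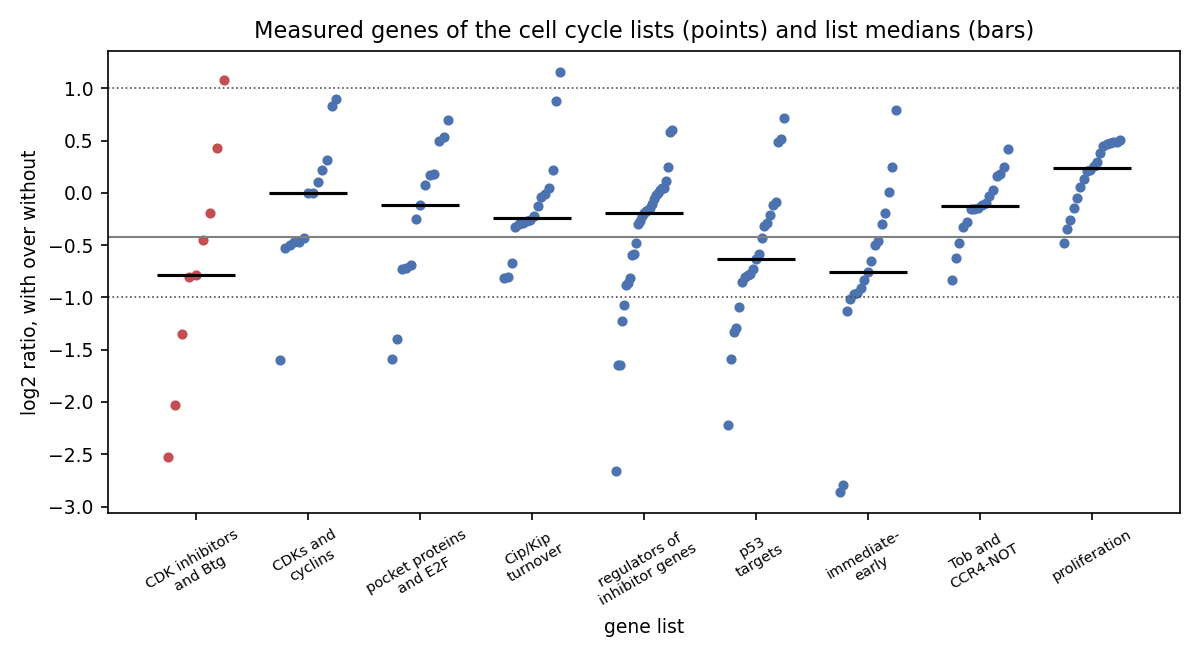
Log2 ratio of with over without CHIR99021 for each measured gene (points, brightest probe set) of the CDK inhibitor and Btg genes (red) and of 8 related lists (blue), with list medians as black bars, the median measured gene as a grey line and 2-fold as dotted lines. The 9 genes run from -2.53 to 1.08, and the proliferation markers lie between the dotted lines.

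The position of Cdkn1c in an imprinted region allowed a further comparison. Of 10 measured genes listed from that region, 0 were at least 2-fold higher and 3 lower, with a median log2 ratio of -0.72. Slc22a18, the gene next to Cdkn1c in the RefSeq order, was dim, with a signal of 39.8 on the array without CHIR99021 and below background on the other, which makes it at least 3.13-fold lower. Igf2, a paternally expressed growth factor of the region, had 4559 and 1486, 3.07-fold lower, beside the 2.54-fold of Cdkn1c. Kcnq1ot1, the noncoding RNA of the paternal allele whose expression silences Cdkn1c there, had a log2 ratio of 0.22. After median centring 0 of these genes were higher and 2 lower. On chromosome 1, the neighbours of Btg2 did not share its ratio: Fmod had a log2 ratio of 0.22 and Chit1 of -0.42.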

How the data were processed

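RNA of 2 samples of cultured epithelium was measured, 1 array per group, from 100 ng of total RNA labelled with a 3' in vitro transcription kit, per the labels' protocols. The authors deposited linear MAS5 signal intensities, with 1 value per probe set. Per the submitters' processing notes, no version or scaling target is known, and detection calls were not used. Probe sets were named from the platform annotation (34945 with 1 gene, 932 with several, 9160 not named here, 64 controls). The floor of each array was the 95th percentile of its 80 olfactory and vomeronasal receptor probe sets. Values below it were raised to it, so ratios with 1 array below it are bounds. A gene counted as measured when either array exceeded its floor, and was represented by the probe set of highest mean log2 signal. Calls are 2-fold or more.

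The members, the gene lists and the rules were chosen with earlier results of these data known. Named genes are all members, genes fixed by name (Axin2, Mki67 and others), and up to 4 genes past 2-fold per list with the largest ratio. Ets2, Jun, Sesn1, Plk3, Tnfrsf10b, Pmaip1, Kcnq1ot1, Fmod, Chit1 and the markers given with values were named after their values were seen. With 2 arrays no likeness of pattern was computed. Alternatives were 4 scalings (loess span 0.4), other floors, an offset of 16, the median over probe sets, leaving out _x_at and _s_at probe sets, and folds of 1.5 and 3. The number of arrays limits the precision. The calling procedure was run on simulated arrays after median centring, with changes well past 2-fold planted in bright genes. That run does not bear on calls near 2-fold, on dim probe sets or on differences between cultures. Promoter windows came from a RefSeq table of GRCm38.p6. Python 3.11.15, numpy 2.4.6, pandas 2.3.3, statsmodels 0.14.6 and matplotlib 3.10.9 were used.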

Additional observations from a re-analysis of the deposited data

How the results depend on the processing

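The median log2 ratio of the measured member genes was below 0 under all 10 alternatives, from -0.78 to -0.25. The median of all measured genes was itself below 0 on the authors' scale (-0.42) and with the hybridization controls (-0.27). After median centring, loess and quantile normalization it was at 0.05, 0.04 and 0.12. No called gene changed sign under any alternative run. The count of 1 higher gene became 0 with the median over the probe sets of a gene and 0 at a 3-fold threshold, and the count of 1 higher probe set became 0 at a 3-fold threshold. At a 1.5-fold threshold, the 3 lower genes became 5 and the 4 lower probe sets became 7. Shares over all genes were not counted at 1.5-fold or 3-fold, so these counts cannot be set against the array. Of all measured genes, 27.8% had a ratio as low as that of Cdkn2d, a gene added at 1.5-fold. The other counts were within 1.5 times the reported ones. Over the alternatives the log2 ratio of Btg2 ran from -2.96 to -2.02, that of Cdkn2b from -2.03 to -1.55, that of Cdkn1c from -1.35 to -0.87 and that of Cdkn1a from 0.67 to 1.56. Log2 ratios relative to the median gene were an alternative chosen after seeing the data. No paired analysis was possible because each group has 1 array. With 1 array per group, differences between cultures cannot be told apart from effects of CHIR99021. Dim probe sets, those of Cdkn2a and the second of Cdkn1b, were limited by their signal over background.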
